A study of Homo sapiens with 15 samples.

Results

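Ligands and receptors of the TGF-beta and BMP pathways were followed in IMR32 cells, an established human neuroblastoma line, in which the homeobox gene MSX1 could be switched on with doxycycline. The set comprised 10 genes, the ligands TGFB1, TGFB2, TGFB3, BMP4 and BMP7 and the receptors TGFBR1, TGFBR2, TGFBR3, BMPR1A and BMPR2. Members were the array probe sets whose only gene symbol in the platform annotation was one of these names. This held for 27 of 54675 probe sets, which covered 9 of the 10 genes. No such probe set was listed for BMPR1A, whose level is not analysed here. Probe sets whose signal did not reach the median of its array on 3 or more of the 15 arrays were set aside as too dim to test, which left 18 of the 27 probe sets and 7 of the genes. In the series as a whole, 30676 probe sets and 12880 genes passed this filter.

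The 15 Affymetrix arrays fell into 5 groups of 3, all of IMR32 cells with the inducible MSX1 gene. One group was taken at t=0 and 3 after doxycycline, at t=8, t=24 and t=48; the last was a control kept to t=48 with no doxycycline. The unit of time is not given in the labels, and neither is the number of clones. No array held doxycycline-treated cells that lacked the inducible gene, so an effect of doxycycline and one of MSX1 cannot be told apart. Separate cultures are not stated for the replicates, so the p-values measure only the spread between these arrays, which may be technical. In bulk samples such as these, fewer cells of a kind and less RNA per cell cannot be told apart either.

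TGF-beta ligands are secreted as latent dimers, held in the matrix until they are released. Active ligand brings together a type II receptor (TGFBR2, or BMPR2 for BMPs) and a type I receptor (TGFBR1, or BMPR1A for BMPs), and the type I receptor phosphorylates SMAD proteins that enter the nucleus. TGFBR3, or betaglycan, is a co-receptor that binds TGF-beta ligands and is known above all for presenting TGFB2. In the developing nervous system BMP signals are known for promoting sympathetic neuron fate, and MSX1 is itself a known target of BMP signalling.

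Fold changes are differences of log2(signal + 5.16), and a gene was called at an adjusted p under 0.05. MSX1 served as the check of the labels. Its brighter probe set read 83.2 ± 14.7 (SD, n = 3) in induced and 50.7 ± 4.52 in control cells at t=48 (log2 fold change 0.65, SE 0.15, limma adjusted p = 0.0165). That probe set read 110.9 ± 13.6 at t=0, above both, so the gap at t=48 came with a fall in control cells (-1.05 against t=0, adjusted p = 0.00501), and induced cells at t=48 read 0.40 below t=0 (adjusted p = 0.0777). It read 161 ± 22.1 at t=8 (0.51 against t=0, adjusted p = 0.128) and 165 ± 20.7 at t=24 (0.55, 0.0299), and the call at t=24 was lost in 10 of 18 alternatives. The mean of its probe sets gave only 0.12 against control at t=48 (adjusted p = 0.689), so the label check rests on one probe set. Its call against control was also lost without any one of 4 arrays, replicate 1 or 3 of the induced and 1 or 2 of the control cells (adjusted p = 0.0551 to 0.0657). The spiked-in bioC hybridisation control read 122.2 in replicate 1 of induced cells at t=24 and 138.5 in replicate 3 at t=48, and 495.2 to 600.4 elsewhere, and these 2 are called the weakly hybridised arrays. The GAPDH 3' to 5' ratio lay between 0.962 and 1.09 on all arrays. Of 10 listed markers of adrenergic neuroblastoma, 9 were measured and 8 passed the filter, with a summed signal of 10823 to 13729, while TH, which encodes tyrosine hydroxylase, never exceeded 11.9. MYCN and GATA3 made up most of that sum, and single markers did change. At t=48 against control, 3 of 8 were called higher, CHGB (1.21), CHGA (0.90) and PHOX2A (0.70). ISL1 (-1.20) was the 1 called lower, where 8.55% of all genes were called. No epithelial or Schwann cell marker passed the filter (of 4 and 2 measured), and 1 of 5 measured blood and endothelial markers, PECAM1, did.

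TGFB2, a secreted ligand of the TGF-beta branch, was the member with the clearest change. On its brightest probe set the deposited signals at t=0 were 174.3, 172.3 and 128.5. They were 86.5, 99.7 and 92.3 at t=8, 95.9, 86.9 and 78.8 at t=24, and 89.5, 100.9 and 106.3 at t=48 in induced cells. Control cells at t=48 read 163.8, 184.4 and 192.2. All 9 arrays of induced cells lay below all 6 arrays of t=0 and control cells.

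At t=48 TGFB2 was 1.78-fold lower in induced than in control cells (log2 fold change -0.83, SE 0.12, 95% interval -1.10 to -0.57, adjusted p = 0.00107 by limma over all genes). Against t=0 it fell by 0.73 at t=8 (adjusted p = 0.00674), by 0.82 at t=24 (adjusted p = 0.00107) and by 0.64 at t=48 (adjusted p = 0.0037) on the log2 scale. Control cells at t=48 differed from t=0 by 0.19, which did not pass (adjusted p = 0.622). The 3 comparisons of induced cells with t=0 share the same t=0 arrays. The fall at t=8 did not pass when only the arrays of the compared groups were fitted (adjusted p = 0.135). In every other alternative at the threshold of 0.05, including leaving out any single array of the compared groups, TGFB2 passed in all of these comparisons with induced cells.

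The other TGFB2 probe sets were read side by side, since probe sets of 1 gene can detect different transcripts. Probe set 220407_s_at read 58.3 to 68.9 on arrays of t=0 and control cells and 23.3 to 41.5 in induced cells. Probe set 209909_s_at read 65.6 to 86.9 and 34.3 to 55.1 in the same division, again without overlap. The dimmest of the 4 that passed the filter, 209908_s_at, read 13.6 to 23.3 in induced cells and was at or above the array median on 8 of 15 arrays. Their log2 fold changes in induced against control cells were -0.97 (adjusted p = 0.00637 over all probe sets), -0.73 (0.0078) and -0.55 (0.0153). A further probe set, 220406_at, read 1.3 to 14.3 and never reached an array median, so it was left out of the main test. Fitted with no filter, it was called in no comparison. Against t=0 it gave 0.22 at t=8, -0.12 at t=24 and -0.67 at t=48 with induction, and -0.48 in control cells. Induced against control cells gave -0.19. All 4 tested TGFB2 probe sets were called lower in each of the comparisons with t=0 and in that with control cells. Of the 18 member probe sets tested, 6 were called against control at t=48 (5.13% of all probe sets), 4 at t=8 (1.11%), 4 at t=24 (6.08%) and 5 at t=48 against t=0 (11.4%). Leaving out any single array of the compared groups gave 3 to 4 against control. For t=8, t=24 and t=48 against t=0 it gave 1 to 3, 4 to 5 and 3 to 5. For 209908_s_at the calls at t=8 and t=48 against t=0 and at t=48 against control were lost under several alternatives, among them the fit without both weakly hybridised arrays (adjusted p = 0.053, 0.107 and 0.0533). Tested over all probe sets, the fall of 228121_at, the brightest, at t=8 did not pass without replicate 1 or 2 at t=0 or replicate 1 or 3 at t=8 (adjusted p = 0.0524 to 0.0718). That of 220407_s_at at t=8 did not pass without any t=0 array or without replicate 1 or 2 at t=8 (0.0635 to 0.102).

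**Figure D1:**
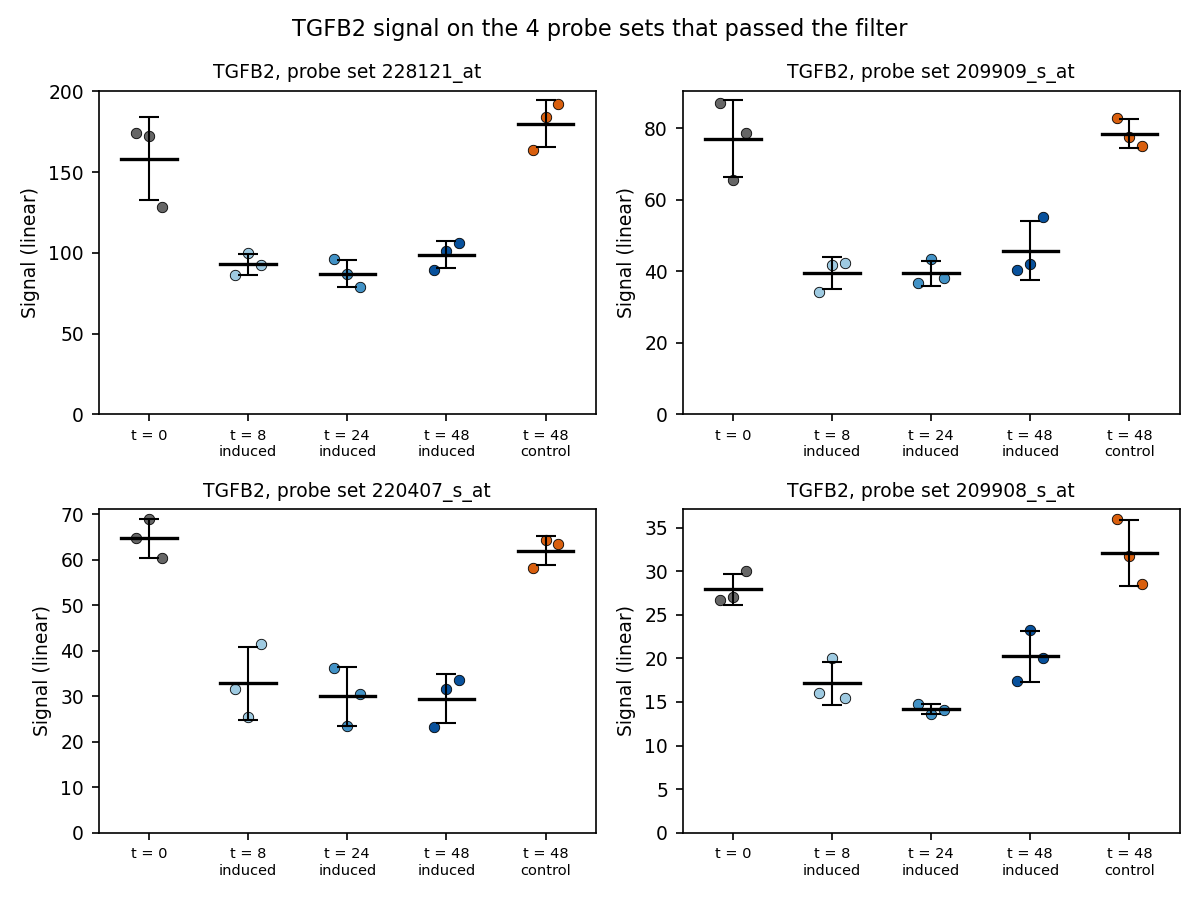
Signals of the 4 TGFB2 probe sets that passed the filter, 1 panel each, on every array by group (linear MAS5 signal); points are arrays, and lines are means with SD (n = 3). On the brightest probe set, induced cells sit between 78.8 and 106.3, below all arrays of t=0 and control cells.

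The promoters of the 3 member genes that passed a test, TGFB2, TGFBR3 and BMPR2, are shown here as the regulatory sequence of the genes the results turn on. Each is the 250 bases before the RefSeq transcript start in GRCh38.p14, 5' to 3' on the gene's strand. TGFB2 lies at chr1:218345086-218345335 (plus strand), TGFBR3 at chr1:91886152-91886401 (minus strand) and BMPR2 at chr2:202376077-202376326 (plus strand). Capitals mark matches, on either strand, to any of 4 words searched for. The first was the core homeobox word TAATTG, which MSX proteins are known to read. Another was ACGTCA, a core of CREB sites. Next came CACGTG, known as the E-box. The last was the core promoter box TATAAA.
TGFB2: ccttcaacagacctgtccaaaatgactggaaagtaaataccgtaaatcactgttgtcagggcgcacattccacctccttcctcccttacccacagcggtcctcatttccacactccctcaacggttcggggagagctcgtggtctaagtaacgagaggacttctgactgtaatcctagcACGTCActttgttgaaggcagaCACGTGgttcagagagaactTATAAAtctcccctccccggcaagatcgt
TGFBR3: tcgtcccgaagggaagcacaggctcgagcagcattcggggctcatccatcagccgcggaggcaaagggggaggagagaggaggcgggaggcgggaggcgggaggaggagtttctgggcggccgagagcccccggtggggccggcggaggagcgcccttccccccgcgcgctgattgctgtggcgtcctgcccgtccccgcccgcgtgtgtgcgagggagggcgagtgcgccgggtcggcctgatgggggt
BMPR2: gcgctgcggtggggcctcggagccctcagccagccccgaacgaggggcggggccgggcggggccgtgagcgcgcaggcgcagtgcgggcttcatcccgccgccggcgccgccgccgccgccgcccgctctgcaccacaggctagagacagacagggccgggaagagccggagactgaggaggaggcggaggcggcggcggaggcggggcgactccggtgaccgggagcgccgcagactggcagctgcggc
In the TGFB2 promoter an ACGTCA began 71, a CACGTG 49 and a TATAAA 29 bases before the start, and TAATTG was not in the window. None of the 4 words was in the TGFBR3 or BMPR2 window. The words were not particular to TGFB2 among the members. One TGFB3 window held ACGTCA 47 and TATAAA 30 bases before its start, and another held CACGTG at 20. BMPR1A held TAATTG at 118 and TATAAA at 28, both on the opposite strand. A BMP4 window held CACGTG at 83. Among 35116 promoters of the same length, 6.703% held TAATTG, 7.102% ACGTCA, 6.345% CACGTG and 10.72% TATAAA. A match is a description of letters and not of a bound site. Of the 10 member genes, 9 have a promoter entry, and BMP7 is the gene named without one.

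TGFB3, another TGF-beta ligand, read higher on average in induced cells, but no difference passed the test. Its signals were 76.5, 78.2 and 58.3 at t=0 and 109.7, 114.0 and 120.4 at t=8, without overlap. They were 69.4, 118.4 and 135.0 at t=24, 88.3, 97.1 and 65.9 at t=48 with induction, and 58.5, 67.3 and 46.6 in control cells. The lowest array at t=24, replicate 1, was weakly hybridised, and so was the lowest in induced cells at t=48. The log2 differences were 0.66 at t=8 (SE 0.22, adjusted p = 0.229), 0.53 at t=24 (0.149) and 0.22 at t=48 against t=0 (0.522), and 0.50 at t=48 against control (0.189). Without both weak arrays TGFB3 passed at t=8 (0.66, adjusted p = 0.0381), at t=24 (0.80, 0.0119) and against control at t=48 (0.66, 0.0341). Without induced t=24 replicate 1 alone, the difference at t=24 was 0.80 (adjusted p = 0.0217). A second TGFB3 probe set read 0.5 to 19.8 and did not pass the filter.

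TGFB1, the most widely expressed TGF-beta ligand, read 224.1, 193.7 and 225.8 at t=0 and 252.5, 222.7 and 216.0 at t=8. It read 213.9, 192.9 and 200.8 at t=24, 173.8, 200.1 and 162.3 at t=48 with induction, and 180.9, 158.4 and 152.8 in control cells. Control cells lay below all t=0 arrays, with a log2 difference of -0.38 that did not pass (SE 0.10, adjusted p = 0.144). Induced cells differed from t=0 by -0.26 at t=48 (adjusted p = 0.1) and from control by 0.12 (95% interval -0.11 to 0.34, adjusted p = 0.523). The interval for induced against control excludes a change as large as that of TGFB2. With the mean of both TGFB1 probe sets in place of the brighter one, that difference turned to -0.02 (adjusted p = 0.955).

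The BMP ligands were dim or variable. BMP4 read 1.7 to 17.4 on its only probe set and reached the array median on no array. BMP7 had 4 probe sets, of which one passed the filter, at or above the median on 12 of 15 arrays. That probe set read 30.7, 52.5 and 4.1 at t=0, 21.4, 22.0 and 20.4 at t=48 with induction and 57.5, 29.1 and 29.6 in control cells. Induced and control cells at t=48 did not overlap, and their log2 difference was -0.67. The t=0 arrays alone spread from 4.1 to 52.5, and BMP7 passed no comparison (SE 0.55, 95% interval -1.87 to 0.53, adjusted p = 0.529 at t=48 against control over all probe sets). The other BMP7 probe sets, too dim for the filter, disagreed in sign in that comparison when fitted with no filter. They gave 0.59 (211259_s_at), 0.44 (209590_at) and -0.39 (209591_s_at), none called. Against t=0, 211259_s_at read 1.69 higher at t=48 with induction, without overlap, and was not called either.

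**Figure D2:**
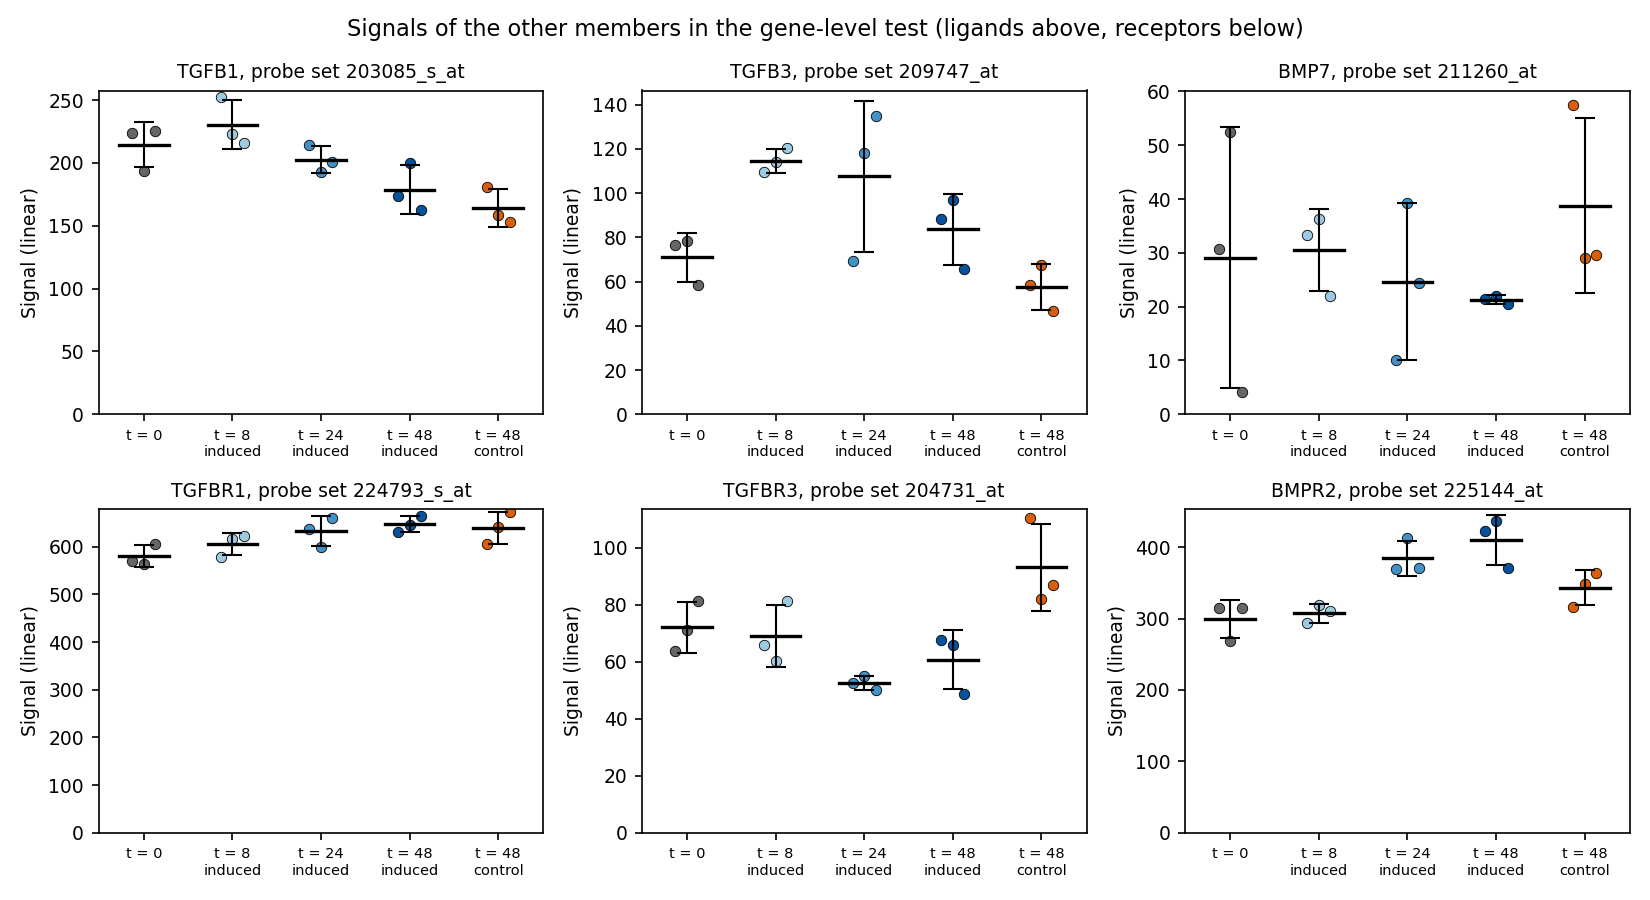
Signals of TGFB1, TGFB3, TGFBR1, TGFBR3, BMPR2 and BMP7, 1 panel each, on the probe set used for the gene, by group (linear MAS5 signal); points are arrays, and lines are means with SD (n = 3). TGFBR3 is lower in induced cells than in control cells at t=48, and BMPR2 is highest at t=24 and t=48 with induction, while BMP7 spreads from 4.1 to 52.5 at t=0 alone.

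Among the receptors, TGFBR3 was lower with induction at t=48. Its signals were 63.7, 71.0 and 81.4 at t=0, 66.0, 60.1 and 81.2 at t=8, and 52.4, 55.0 and 50.1 at t=24. At t=48 they were 67.6, 66.0 and 48.7 with induction and 110.5, 82.0 and 87.0 in control cells, without overlap. The log2 fold change against control was -0.58 (SE 0.15, 95% interval -0.90 to -0.26, adjusted p = 0.0311), and a second probe set gave -0.68 (adjusted p = 0.0309 over all probe sets). Against t=0 the difference in induced cells was -0.42 at t=24 (adjusted p = 0.098) and -0.23 at t=48 (0.297), while control cells read 0.34 above t=0 (0.404). So induced cells read below t=0 and control cells above it, and neither passed against t=0.

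The TGFBR3 call was close to the threshold. Leaving out replicate 2 or 3 of the induced cells at t=48 gave an adjusted p of 0.0505 or 0.122, and leaving out control replicate 1 or 3 gave 0.122 or 0.0611. Without both weakly hybridised arrays the difference was -0.44 (adjusted p = 0.126). Tested over all probe sets, this brighter probe set, 204731_at, passed with an adjusted p of 0.0483 and lost the call in 13 of 17 alternatives. The second, 226625_at, lost it in 9 of 17 and without any one of the 6 arrays compared (adjusted p = 0.0526 to 0.109).

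TGFBR1, the type I receptor for TGF-beta, held a narrow range, from 562.9 to 672.5 over all 15 arrays on its brightest probe set. It differed between induced and control cells at t=48 by 0.02 on the log2 scale (SE 0.070, 95% interval -0.13 to 0.17, adjusted p = 0.907). Against t=0 the difference at t=48 was 0.16 (adjusted p = 0.137). A second probe set, 236561_at, differed by 0.49 against control (adjusted p = 0.102 over all probe sets) and the last, 206943_at, by -0.38 (0.269), so the probe sets disagreed in sign and none passed against control. Over the induced course 236561_at was called by the moderated F-test (adjusted p = 0.0402 over all probe sets), its mean signal going from 35.8 at t=0 over 30.1 (t=8) and 46.0 (t=24) to 50.4 (t=48), while 224793_s_at (0.448) and 206943_at (0.84) were not. The type II receptor TGFBR2 read 0.5 to 7.2 and 8.6 to 18.6 on its 2 probe sets and never reached an array median.

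BMPR2, the type II receptor for BMPs, rose in induced cells. It read 314.9, 268.0 and 314.8 at t=0 and 293.1, 319.2 and 310.9 at t=8. It then read 369.5, 412.8 and 370.9 at t=24 and 422.4, 436.5 and 370.4 at t=48, above every array of t=0 and t=8. Control cells at t=48 read 316.3, 348.4 and 364.2, above t=0 but below induced cells. Against t=0 BMPR2 rose by 0.36 at t=24 (SE 0.094, adjusted p = 0.0288) and by 0.45 at t=48 (SE 0.094, adjusted p = 0.00625). Induced cells were 0.25 above control cells at t=48, which missed the threshold (95% interval 0.05 to 0.46, adjusted p = 0.126), nor did control against t=0 (0.20, 0.468) or t=24 against t=8 (0.32, 0.067).

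The BMPR2 call at t=24 was lost without t=0 replicate 2 (adjusted p = 0.109) or without t=24 replicate 1 (0.0528), 2 (0.0957) or 3 (0.0543). Among the other BMPR2 probe sets, 231873_at read 0.57 above t=0 at t=48 (adjusted p = 0.0641) and 238516_at 0.80 above t=0 at t=24 (0.0632). Neither passed. Control cells at t=48 also read above t=0 on these probe sets, by 0.27 and 0.41, with neither called. Induced against control cells gave 0.29 (adjusted p = 0.391) and -0.001 (0.998). On all t=0 arrays 238516_at was below the array median. Probe set 209920_at read 0.35 above t=0 at t=8 and at t=24 but 0.06 at t=48, with none called, and 210214_s_at differed by -0.05 to 0.02 in the comparisons with t=0. Tested over all probe sets, 225144_at, the one used for the gene, passed at t=48 against t=0 (adjusted p = 0.0136) and not at t=24 (0.056).

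Counts over the 7 tested member genes are set beside the share of all genes called. Members were chosen with earlier results of these data known, so the counts are only descriptive. Between induced and control cells at t=48, 2 of 7 genes were lower (TGFB2 and TGFBR3) and 0 higher, where 8.55% of all genes were called and 3.28% were lower. Against t=0, 1 of 7 was called at t=8 (TGFB2), where 2.1% of all genes were. At t=24, 2 were called, TGFB2 lower and BMPR2 higher, where 10.8% of all genes were. At t=48, the same pair was called in the same directions, where 18.1% were. Control cells at t=48 against t=0 gave 0 of 7 by limma (0.846% of all genes), with 2 at an unadjusted p under 0.05. The steps from t=8 to t=24 and from t=24 to t=48 also gave 0 of 7 by limma (6.27% and 3.99% of all genes), with 2 and 0 at an unadjusted p under 0.05. The moderated F-test over the induced course called TGFB2 (adjusted p = 0.00171) and BMPR2 (0.00816), against 20.1% of all genes. Groups did not overlap for 4 of 7 members at t=48 against control (31.2% of all genes), 2 at t=8 (14.3%), 3 at t=24 (30.3%) and 3 at t=48 against t=0 (37.2%). The median log2 difference of members against control at t=48 was 0.02, beside -0.01 over all genes.

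**Figure D3:**
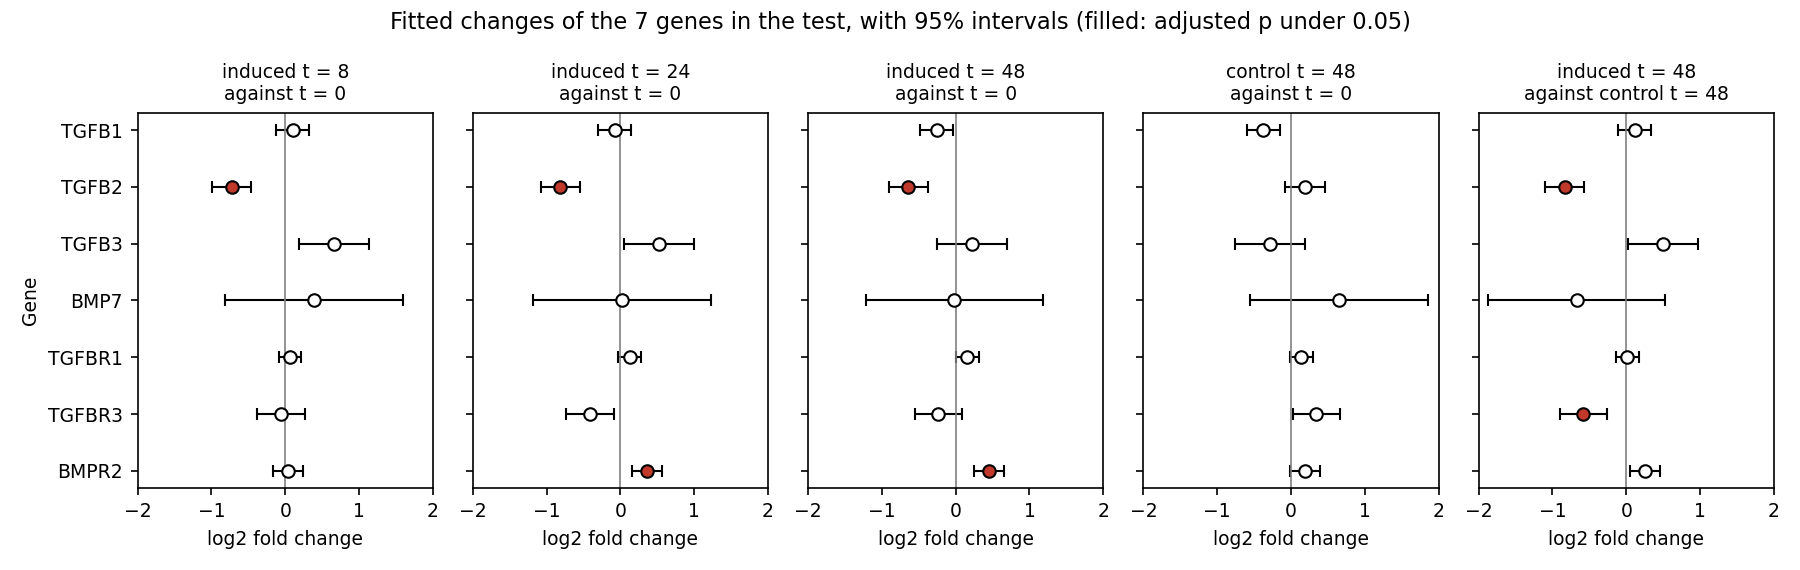
Log2 fold changes of the 7 member genes that passed the filter in 5 comparisons, with 95% intervals from limma; filled points passed an adjusted p of 0.05. TGFB2 lies below 0 in all comparisons of induced cells, from -0.64 to -0.83, and near 0.19 in control cells.

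The rest of the family gives the setting. Its gene lists were chosen with earlier results of these data known, so their counts are only descriptive. Of 28 other ligands in the list, 11 were tested and 0 differed between induced and control cells at t=48 by limma, with 2 at an unadjusted p under 0.05. INHBE, an inhibin beta subunit, fell at t=24 against t=0 (-0.84, adjusted p = 0.00903) and was the only other ligand called against t=0. It rose again from t=24 to t=48 in induced cells (0.998, adjusted p = 0.00514), where it read 0.16 above t=0 (0.566). Of the other receptors, 10 were tested and 2 were called at t=48 against control, where 8.55% of all genes were called. One, ACVR2A, an activin type II receptor, was higher (0.32, adjusted p = 0.0133). The other, ACVRL1, a type I receptor known from endothelium, read 17.2 ± 1.76 against 6.07 ± 1.81. It reached the array median on none of those arrays and passed the filter only through t=8 and t=24, so no fold is given. For ACVR2A, leaving out replicate 3 of the induced or replicate 2 of the control cells ended the call (adjusted p = 0.0561 and 0.0653).

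At t=24, against t=0, 4 other receptors rose and 1 fell of 10, where 10.8% of all genes were called. The 4 include ACVRL1, which passed the filter only through t=8 and t=24, so its call was not independent of the filter. ACVRL1, at 32.6 ± 6.25 against 13.9 ± 5.57 and below the array median at t=0, ACVR1 (0.55), ACVR1B (0.41) and ACVR2A (0.34) were higher, and the BMP co-receptor gene RGMA was lower (-0.63, adjusted p = 0.0277). For ACVR1B the mean of its probe sets gave 0.11 (adjusted p = 0.645), and its call was lost without replicate 1 or 3 at t=0 or replicate 2 or 3 at t=24. The RGMA call was lost without any array but replicate 1 at t=24.

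Of 11 tested genes that hold TGF-beta latent or release it, 3 rose and 0 fell at t=48 against control (8.55% of all genes called). ITGB5, an integrin subunit, read 76.5 ± 3.15 against 21.1 ± 3.5 (1.65, adjusted p = 0.00147), followed by LTBP3, a latent TGF-beta binding protein (0.61, 0.0445), and the metalloproteinase gene MMP2 (0.41, 0.0201). The LTBP3 call was lost without any one of the 6 arrays, and the MMP2 call without replicate 1 or 2 of either group. At t=24 against t=0, ITGB5 (1.96), MMP2 (1.28) and ITGB8 (1.08), another activating integrin subunit, rose and 0 of 11 fell (10.8% of all genes called). Both integrin genes were dim at t=0, at 19.3 ± 10.8 for ITGB5 and 19.7 ± 1.64 for ITGB8. Each reached the array median there on 1 array. Over the alternatives the difference ran from 1.54 to 2.28 for ITGB5 and from 0.83 to 1.22 for ITGB8. The ITGB8 call was lost without t=24 replicate 3 (adjusted p = 0.0554).

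Of 18 SMADs and direct regulators, 2 were lower and 0 higher at t=48 against control, where 3.28% of all genes were called lower and 8.55% called in all. SMAD9, a BMP-branch SMAD, read 1091 ± 50.6 against 1531 ± 21.7 (-0.49, adjusted p = 0.000941). It was also lower at t=8 against t=0 (-0.58, 0.000719), but the fall did not last. SMAD9 rose from t=8 to t=24 (0.62, adjusted p = 0.000412), where it read 0.04 above t=0 (0.753). From t=24 to t=48 it fell again (-0.39, 0.00674). SMAD6, an inhibitory SMAD that BMP signals induce, was lower at t=48 against control (-0.42, 0.0351) and against t=0 (-1.13, 2.56e-05). Control cells at t=48 also read lower than t=0 for SMAD6 (-0.71, adjusted p = 0.00896), a call lost without t=0 replicate 1 or control replicate 3. The first of these SMAD6 calls was lost without replicate 2 or 3 of the induced or 1 or 2 of the control cells (adjusted p = 0.112 to 0.129). At t=24 against t=0 only TGIF1, a SMAD co-repressor, was called (0.40, adjusted p = 0.0238), a call lost without replicate 2 at t=0 or replicate 1 at t=24. Against t=0 at t=48, 4 of 18 were lower and 2 higher, where 18.1% of all genes were called. Among them FKBP1A, which binds type I receptors, fell (-0.51), SMAD7, another inhibitory SMAD, fell (-0.36, adjusted p = 0.0466), and SKIL, a SMAD co-repressor, rose (0.83, 0.0449). For SMAD7 control cells read 0.32 below t=0 (adjusted p = 0.291), and induced against control cells gave -0.04 (0.858). The SMAD7 call was lost without any t=0 array or replicate 1 or 3 at t=48, and the SKIL call without any t=0 array or replicate 2 or 3 at t=48.

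Among 7 tested extracellular antagonists, 2 rose and 1 fell by t=8 against t=0, where 2.1% of all genes were called. BAMBI, a decoy receptor that lacks the kinase domain, read 349 ± 14.2 at t=0, 707 ± 46.4 at t=8 (1.01, adjusted p = 4.37e-05) and 923 ± 95.8 at t=24 (1.39). It was also higher at t=48 against control, 444 ± 13.4 against 280 ± 9.3 (0.66, adjusted p = 0.000406). NOG, which encodes the BMP antagonist noggin, read 2.5 ± 1.39 at t=0, 22.9 ± 2.59 at t=8 and 60.6 ± 15 at t=24. It reached the array median on 0 arrays at t=0, 2 at t=8 and 3 at t=24, and its log2 difference at t=24 against t=0, 3.09, ran from 2.03 to 4.21 over the alternatives. NOG passed the filter only through induced cells, so its place in the counts of this list was not independent of the filter. At t=48 NOG read 17.8 ± 2.95 with induction, where 1 array reached the median, and 9.73 ± 1.5 in control cells, where 0 did, so no fold is given there. FSTL3, a follistatin-like activin antagonist, was the one that fell at t=8 (-0.77, adjusted p = 0.0373), a call lost without any one of the 6 arrays. FST, follistatin itself, rose at t=24 (1.002, adjusted p = 0.00697). Of the 7, 2 were called higher (BAMBI and the dim NOG) and 0 lower at t=48 against control (8.55% of all genes called), and 3 higher and 0 lower at t=24 against t=0 (10.8%). In control cells CHRDL1 (0.80), another BMP antagonist, was called above t=0 at t=48, and so was NOG, whose signals were below the array median in both groups. Induced cells at t=48 were likewise called above t=0 for CHRDL1 (0.66, adjusted p = 0.00189) and for NOG. CHRDL1 differed between induced and control cells by -0.14, which did not pass (adjusted p = 0.48).

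**Figure D4:**
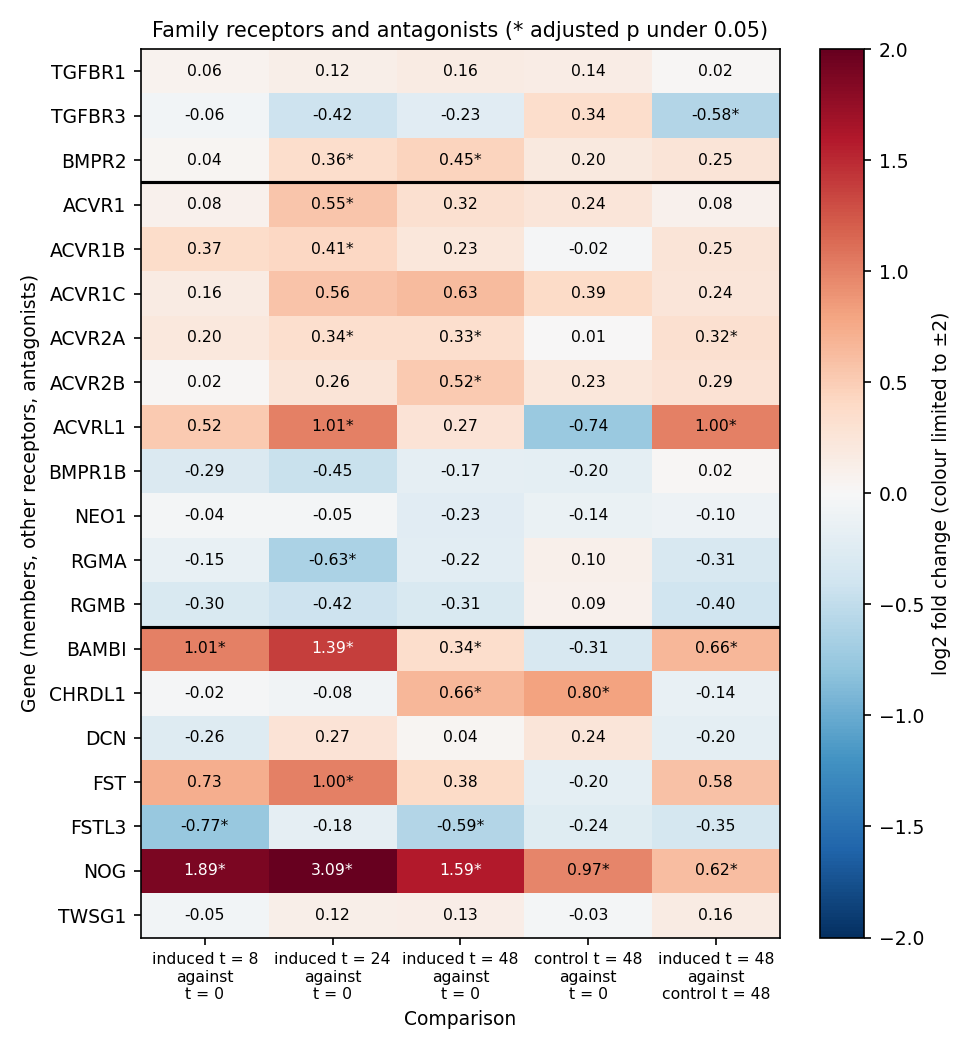
Log2 fold changes of the member receptors, the other receptors and the extracellular antagonists that passed the filter, in rows, for 5 comparisons, in columns. Numbers are the full values, and only the colour is limited to 2 either way. An asterisk marks an adjusted p under 0.05. BAMBI lies above 0 at t=8 (1.01) and t=24 (1.39) against t=0; NOG and ACVRL1 were below the array median at t=0 and in control cells, so their values against those groups depend on the offset. TGFBR3 is the only gene called lower at t=48 against control.

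Genes known to respond to TGF-beta or BMP moved in both directions. Like the other lists, this one was chosen with earlier results of these data known. Its counts beside the share of all genes are therefore only descriptive. Of 18 tested, 5 were higher and 3 lower at t=48 against control (8.55% of all genes called). HEY1, a repressor that also responds to Notch, rose most (4.25), and FN1 (fibronectin, 0.97) and SNAI2 (0.85) were higher, while the BMP target ID1 was lower, at 212 ± 44.6 against 581 ± 100 (-1.44, adjusted p = 0.000543). For SNAI2 the gap came with a fall in control cells (-1.09 against t=0). Induced cells at t=48 read 0.24 below t=0 for SNAI2 (limma adjusted p = 0.214). At t=48 against t=0, 6 of 18 were higher and 8 lower, where 18.1% of all genes were called. At t=8 against t=0, 7 were higher and 0 lower (2.1% of all genes called), led by HEY1 (2.16) and SNAI2 (1.16). At t=24 against t=0, 8 were higher and 1 lower (10.8% of all genes called), with HEY1 (3.03), MSX2 (1.83), BAMBI (1.39) and COL1A1 (1.38) the largest. From t=24 to t=48 in induced cells 10 were lower and 1 higher (3.99% of all genes called), ID1 (-2.62), ID3 (-2.28), MSX2 (-1.69) and SNAI2 (-1.39) by most, and HEY1 was the one that rose. The list's median was -0.79 in that step, beside -0.01 over all genes. Uninduced cells were lower in some of the same genes: at t=48 control cells had 5 of 18 lower and 1 higher than t=0 (0.846% of all genes called), with a median of -0.32. These were ID1 (-1.64), ID3 (-1.56), SNAI2 (-1.09), SMAD6 (-0.71) and ID2 (-0.46), and DLX5 was higher (0.55); ID2 and DLX5 are named after their values were seen. The ID2 call was lost without t=0 replicate 1 or 2 or control replicate 2 or 3, and that of DLX5 without replicate 2 or 3 of either group. SMAD6, SMAD7, SKIL and PMEPA1 stand also in the list of SMADs and regulators, BAMBI in that of antagonists and COL1A1 among the fibroblast markers. Summed fibroblast markers, of which 6 of 7 passed the filter and COL1A1 made up the bulk, read 474.3 to 609.9 at t=0, 1135.5 to 1494.4 at t=24, and 786.9 to 985.1 with and 612.7 to 680.3 without induction at t=48. Their part in the FN1 and COL1A1 results was not tested.

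The genes most like TGFB2 over the 15 arrays, by Pearson correlation of log2 signals, were DOK5 (r = 0.96), TENT5A (r = 0.94) and PRSS12 (r = 0.94). They were lower with induction at t=48 by -1.22, -1.05 and -1.14 against control. All 3 were called (adjusted p = 7.38e-06 to 7.34e-05). Those most like TGFBR3 were SLC1A4 (r = 0.91), RMI2 (r = 0.90) and PRKRA (r = 0.90). Of these RMI2 was lower against control (-0.45, adjusted p = 0.00479), while SLC1A4 (-0.33, 0.0877) and PRKRA (-0.15, 0.308) did not pass. Group differences are part of each correlation, and all values come from the same arrays.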

How the data were processed

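The authors deposited linear intensities for 15 arrays, computed with MAS5 (GCOS) per the submitters' processing notes. Versions, settings and a genome build are not given in the sources used here. Every array came scaled to 1 trimmed mean, so differences between arrays among low signals were not removed. Precision is limited by having 3 arrays a group.

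An offset of 5.16 (the mean lower quartile of signal) was added before log2, so fold changes of dim genes are understated. Probe sets at or above the array median on at least 3 of 15 arrays were kept. Each gene was represented by its kept probe set of highest mean log2 value. The two-sided test came from limma 3.58.1 under R 4.3.3, with lmFit and eBayes fitted to all 15 arrays as 5 groups (Benjamini-Hochberg over 12880 genes or 30676 probe sets, threshold 0.05). The fit was tested on simulated data with 200 changed genes, for t=48 against control. It called 79% of 2-fold and 33% of 1.41-fold changes, so a change of the smaller size was more often missed than called. Single-symbol probe sets numbered 41091, several symbols were given for 1801, and 11721 were not listed; 41037 of the first were matched by Entrez identifier to RefSeq GRCh38.p14. Promoters are RefSeq sequences of that build. Members and gene lists (other ligands, other receptors, latency and activation, SMADs and regulators, antagonists, response genes, and markers of 5 cell types) were chosen with earlier results of these data known. Named were all members, MSX1, up to 4 called genes per list and comparison, and the 3 genes most like each member called against control at t=48. Same-numbered replicates did not deviate together in any comparison (correlations of 0.007 to 0.0749 for induced against control at t=48), so replicate numbers were not taken as pairs. The alternatives covered the offset, scaling, filter, probe set per gene, variance model, arrays fitted, replicate block, threshold and leaving out arrays. Figures were drawn with matplotlib 3.10.9.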

Additional observations from a re-analysis of the deposited data

Results flagged for a closer look

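TGFB2 and TGFBR3 changed differently from t=0 to t=48 with and without induction, tested as the difference of the changes in the limma fit. For TGFB2 the change in induced cells minus that in control cells was -0.83 on the log2 scale (adjusted p = 0.00107 over all genes), and for TGFBR3 it was -0.58 (adjusted p = 0.0311). Both groups share the t=0 arrays, so this difference equals that between induced and control cells at t=48.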

How the results depend on the processing

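TGFB2 at t=48 against control kept its direction and its call in all alternatives run at the threshold of 0.05 (log2 -0.90 to -0.77, adjusted p 0.00017 to 0.0125). For TGFBR3 in that comparison, 9 of 18 alternatives lost the call (adjusted p 0.00609 to 0.126), and for BMPR2 at t=24 against t=0, 8 of 18 did (0.00958 to 0.245). Counts of member genes called moved as follows from 2 at t=48 against control and 2 at t=24 against t=0. Each became 1 at a threshold of 0.01, with median-centred arrays, with no filter, with only the compared groups fitted and with the replicate block. Member genes at t=48 against t=0 went from 2 to 1 with median-centred arrays and with only the compared groups, and over the induced course from 2 to 1 with median-centred arrays. At t=8 the count of 1 became 0 with only the compared groups and 2 without the weakly hybridised arrays. From t=8 to t=24 it went from 0 to 1 with the filter on all 15 arrays and with a mean-variance trend. Member probe sets called at t=48 against control went from 6 to 3 at 0.01 and with no filter, and to 2 with only the compared groups. At t=8 they went from 4 to 1 at 0.01, with median-centred arrays and with no filter, and to 0 with only the compared groups. At t=48 against t=0 they went from 5 to 3 at 0.01 and with median-centred arrays, and to 1 with only the compared groups. The replicate block also raised the probe sets called from t=8 to t=24 from 0 to 1, and TGFBR1 probe set 236561_at passed with it at t=48 against control (adjusted p = 0.0422). It took the TGFBR3 call (adjusted p = 0.0566) and that of BMPR2 at t=24 (0.0536). Leaving out 1 array at a time gave 1 to 2 member genes at t=48 against control and at t=24 against t=0. It gave 3 to 4 probe sets at t=48 against control, 1 to 3 at t=8 and 3 to 5 at t=48 against t=0. TGFBR1 at t=48 against control, 0.02, turned to -0.021 with median-centred arrays, to -0.0022 without the weak arrays, and to between -0.021 and 0.053 without single arrays. With the mean of a gene's probe sets TGFB1 turned to -0.019 and PRKRA, in the same comparison, from -0.15 to 0.16. SMAD7 there, -0.04, ranged from -0.14 to 0.045 without single arrays. The causes were not tested.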
